A study of Mus musculus with 6 samples.

Results

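Markers of perineurial cells and of mesothelial-like epithelium were followed in sciatic nerve RNA from mice aged 1 month. The set held 9 genes: Lypd2, Msln, Krt19, Krt18, Krt8, Perp, Tjp1, Ocln and Upk3b. They were found by matching each symbol to the gene name of every probe that was not a control, which gave 11 of the 39429 probes on the array. OGT_SCKO mice, labelled as knockouts of OGT, were set against their Ctrl littermates, with 3 independent pools of nerves in each group and 1 array per pool. Both groups are labelled as being on a C56 BL6 background. The series title places the deletion in Schwann cells; the promoter that drives the deletion and the number of animals per pool are not given in the sources used here. P-values therefore measure the spread between pools.

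The perineurium is the sheath of flattened, layered cells around each nerve fascicle, and together with the vessels inside the nerve it forms the blood-nerve barrier. Its cells are joined by tight junctions, in which claudins and occludin span the membrane and Tjp1 (ZO-1) ties them to actin underneath. Keratins are the intermediate filaments of epithelia and form pairs of a type I chain, such as Krt18 or Krt19, with a type II chain, such as Krt8. Mesothelium is the thin epithelium that lines body cavities, and Msln and Upk3b are known for their expression there. In whole-nerve RNA, fewer cells of a type and less RNA per cell cannot be told apart.

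The 60-base probes of 2 keratin genes, Krt19 (measured) and Krt8 (not measured), are shown with the longest stretch they share in capitals. Both are given 5′ to 3′, as in the scanner files, and lie on the minus strand of build mm9: the Krt19 probe at chr11:100002392-100002451 and the first Krt8 probe at chr15:101828827-101828886.
Krt19: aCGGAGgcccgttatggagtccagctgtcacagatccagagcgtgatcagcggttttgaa
Krt8: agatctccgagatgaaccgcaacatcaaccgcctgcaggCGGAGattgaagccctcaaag
The shared stretch was 5 bases long, and in the other pairs among the 4 probes of Krt19, Krt18 and Krt8 it was 4 to 7 bases long. Probes were compared with each other and not with keratin transcripts, so whether a probe also binds RNA of other keratins was not tested.

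Measured levels covered 5 of the 9 genes: Lypd2, Msln, Krt19, Perp and Tjp1, each by 1 probe well above background on all 6 arrays. The same held for 93.5% of the 19046 genes tested. Krt18, Krt8, Ocln and Upk3b were not well above background on all arrays of either group and were not tested. Levels below are log2 processed signals relative to the 75th percentile of their array, so a level of 0 is that percentile. They are compared between pools and not between genes, except to describe what makes up a summed marker signal. Errors of log2 fold changes are standard errors (SE) of the limma fit, and adjusted p-values are Benjamini-Hochberg values over all 19046 genes.

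As a check of the labels, Ogt itself stood at -0.89, -1.01 and -1.01 in OGT_SCKO pools 1, 2 and 3, against 0.46, 0.35 and 0.11 in Ctrl pools 1, 2 and 3 (log2 fold change -1.28, SE 0.13, limma adjusted p = 0.00117). All 3 OGT_SCKO pools were below all 3 Ctrl pools. Over the arrays the 75th percentile of signal lay between 2749 and 6136 intensity units, and 59.0% to 65.2% of probes were well above background. The arrays came from 2 slides: slide 1 held all 3 OGT_SCKO pools and Ctrl pool 2, and slide 2 held Ctrl pools 1 and 3.

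Of the 5 genes measured, 3 fell in OGT_SCKO nerves at an adjusted p under 0.05 and none rose. Those 3 were Lypd2, Msln and Krt19, each at 44.0% to 45.6% of its Ctrl level, and Perp and Tjp1 did not pass the test. Over all genes tested, 23.3% changed, with 12.1% lower and 11.2% higher in OGT_SCKO nerves. A fall of 2-fold or more, as in these 3 genes, was called in 3.27% of all genes. The median log2 fold change was -1.13 over the 5 genes and -0.07 over all genes. None of the 5 had overlapping groups, which was also true of 45.7% of all genes: 4 were lower in OGT_SCKO nerves (25.4% of all genes) and 1 was higher (20.4%). For each of the 5, the exact two-sided permutation test over the pools gave p = 0.1, the smallest value that 3 pools against 3 allow.

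Lypd2 encodes a small protein of the Ly6/PLAUR domain family. Its probe lies on the minus strand of chromosome 15, at 74562684 to 74562743 (mm9). The level was 1.96, 1.38 and 1.44 in OGT_SCKO pools 1, 2 and 3, against 2.56, 3.20 and 2.57 in Ctrl pools 1, 2 and 3. OGT_SCKO pool 1 was the highest of its group and Ctrl pool 2 stood above the other Ctrl pools, and the groups did not overlap. In processed signal before scaling, the OGT_SCKO pools gave 13410, 15950 and 13102 intensity units and the Ctrl pools 24383, 25284 and 25621. The mean level was 1.59 ± 0.32 in OGT_SCKO and 2.78 ± 0.37 in Ctrl nerves (SD, n = 3 each; limma adjusted p = 0.0151). The log2 fold change was therefore -1.18 (SE 0.24), or 44.0% of Ctrl, with a 95% interval of -1.75 to -0.62. Without OGT_SCKO pool 3 the fall was -1.11 and no longer passed (adjusted p = 0.0652). Within slide 1, where Ctrl pool 2 is the only Ctrl array, Lypd2 had a change of -1.61 that did not pass (limma adjusted p = 0.0821), and with slide as a fixed block, where the value rests on the same arrays, the adjusted p was 0.0272.

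Msln encodes mesothelin, a glycoprotein anchored on the surface of mesothelial cells. Its probe lies on the minus strand of chromosome 17, at 25885569 to 25885628 (mm9). OGT_SCKO pools 1, 2 and 3 had levels of 0.35, 0.02 and 0.17, against 1.07, 1.83 and 1.17 in Ctrl pools 1, 2 and 3. As with Lypd2, OGT_SCKO pool 1 and Ctrl pool 2 were the highest of their groups after scaling. Every OGT_SCKO pool was below every Ctrl pool. Before scaling, OGT_SCKO pools 1, 2 and 3 gave 4418, 6226 and 5424 intensity units, with pool 1 the lowest. Ctrl pools 1, 2 and 3 gave 8700, 9778 and 9721 units. The mean was 0.18 ± 0.17 in OGT_SCKO and 1.36 ± 0.41 in Ctrl nerves (SD, n = 3 each). Msln was thus at 44.3% of Ctrl, with a log2 fold change of -1.18 (SE 0.22) and a limma adjusted p of 0.0120. Without OGT_SCKO pool 3 the adjusted p was 0.0523. Within slide 1 the change was -1.65 (limma adjusted p = 0.0447), and with slide as a fixed block the adjusted p was 0.0108.

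Krt19, the type I keratin whose probe is printed above, had levels of 0.09, -0.10 and -0.29 in OGT_SCKO pools 1, 2 and 3, against 1.11, 1.15 and 0.84 in Ctrl pools 1, 2 and 3. The groups were far apart beside the spread within each: the lowest Ctrl pool was above the highest OGT_SCKO pool, and Ctrl pool 2 was close to Ctrl pool 1. Mean levels were -0.10 ± 0.19 in OGT_SCKO and 1.03 ± 0.17 in Ctrl nerves (SD, n = 3 each). The log2 fold change was -1.13 (SE 0.15, limma adjusted p = 0.00328), or 45.6% of Ctrl, with a 95% interval of -1.48 to -0.78. It passed without each of the 6 pools in turn and with slide as a fixed block (-1.25, limma adjusted p = 0.0329), but within slide 1 alone, with 1 Ctrl array, the adjusted p was 0.0853.

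Krt18 and Krt8, the keratin pair of simple epithelia, were near or below the limit of the array. Krt18 (chromosome 15, 101862341 to 101862400, plus strand, mm9) gave 114, 166 and 244 intensity units in OGT_SCKO pools 1, 2 and 3, against 94.4, 70.2 and 147 in Ctrl pools 1, 2 and 3. It was well above background in 2 of 3 OGT_SCKO pools and 1 of 3 Ctrl pools, and its groups overlapped. The first Krt8 probe gave 28.5, 28.3 and 27.4 units in the OGT_SCKO pools and 28.5, 28.9 and 34.2 units in the Ctrl pools. A second Krt8 probe, at 101827138 to 101827197 of chromosome 15 on the minus strand, gave 23.4, 23.4 and 23.7 units in the OGT_SCKO pools and 48.6, 23.2 and 40.5 units in the Ctrl pools. Neither Krt8 probe was well above background on any array, and the scanner software had replaced the value by a surrogate on 5 and 4 of the 6 arrays. So the type I chain Krt19 was measured and lower in OGT_SCKO nerves, while no level of its type II partner Krt8 can be given.

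Perp is a membrane protein of desmosomes, the junctions that anchor keratin filaments, and a known target of the transcription factor p53. Its probe lies on the plus strand of chromosome 10, at 18576697 to 18576756 (mm9). Levels were -0.63, -0.05 and -0.43 in OGT_SCKO pools 1, 2 and 3, against 0.29, 0.11 and 0.05 in Ctrl pools 1, 2 and 3. OGT_SCKO pool 2 came closest to the Ctrl pools without reaching them. The log2 fold change of -0.52 (SE 0.17, 95% interval -0.92 to -0.11) did not pass after adjustment (limma adjusted p = 0.0716). It passed without OGT_SCKO pool 2 (-0.68, limma adjusted p = 0.0163) and with slide as a random block (adjusted p = 0.0460).

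Tjp1, the junction scaffold, which Schwann and endothelial cells also make, was the one measured gene of the set with a higher mean in OGT_SCKO nerves. Its probe lies on the minus strand of chromosome 7, at 72441126 to 72441185 (mm9). Levels were 2.07, 2.46 and 2.15 in OGT_SCKO pools 1, 2 and 3, against 1.89, 1.61 and 1.80 in Ctrl pools 1, 2 and 3. All OGT_SCKO pools stood above all Ctrl pools, with the lowest OGT_SCKO and the highest Ctrl pool close together. The log2 fold change of 0.46 (SE 0.14, 95% interval 0.11 to 0.80) did not pass the test (limma adjusted p = 0.0627). It passed without OGT_SCKO pool 1 (0.54, limma adjusted p = 0.0465) and with a variance model that follows the mean level (adjusted p = 0.0367).

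Ocln, which encodes occludin, had 2 probes on the minus strand of chromosome 13. The first, at 101268529 to 101268588 (mm9), gave 55.1, 243 and 125 intensity units in OGT_SCKO pools 1, 2 and 3, against 198, 107.4 and 129 in Ctrl pools 1, 2 and 3. It was well above background in 2 pools of each group, and its values overlapped fully. The second, at 101267384 to 101267443, ran from 26.9 to 27.8 units in the OGT_SCKO pools and from 27.2 to 27.8 in the Ctrl pools, all of them surrogates. Upk3b, a relative of the uroplakins of the bladder lining, gave 23.4 to 24.3 units in the OGT_SCKO pools and 23.7 to 23.9 in the Ctrl pools at its probe on chromosome 5 (136520522 to 136520581, plus strand). These too were surrogates on all 6 arrays, so no change of Upk3b was detectable.

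**Figure D1:**
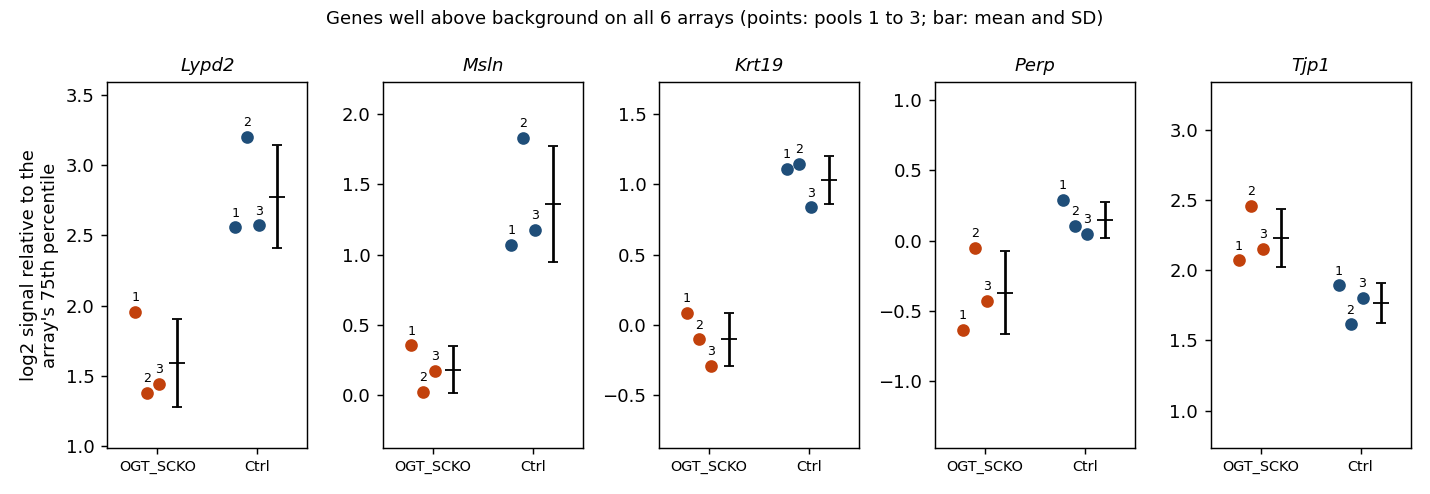
Levels of the 5 genes well above background on all 6 arrays, as log2 processed signal relative to the array's 75th percentile (y axis, the same span in each panel). Points are pools 1 to 3 and bars the mean and SD of 3 pools; Lypd2, Msln and Krt19 lie lower in OGT_SCKO nerves by 1.13 to 1.18 on the log2 scale, and Perp and Tjp1 did not pass the test.

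**Figure D2:**
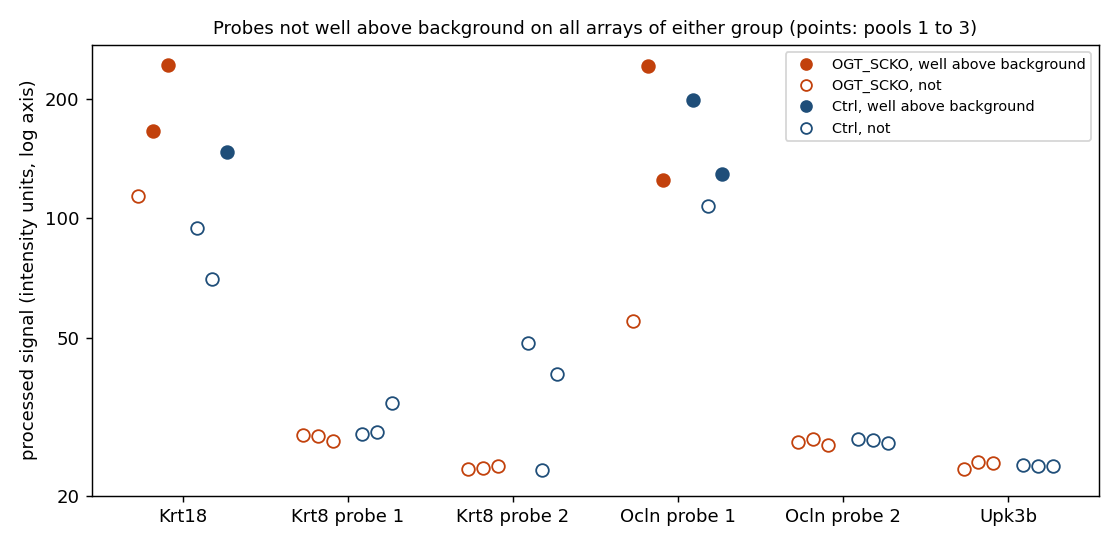
Processed signal in intensity units (log axis) of the 6 probes of Krt18, Krt8, Ocln and Upk3b, by pool. Filled points were well above background: Krt18 in 3 of the 6 arrays, the first Ocln probe in 4, and the other probes in 0.

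The label of the set was checked against other markers of both cell types. Of 14 other perineurial genes, 13 were measured, among them the glucose transporter Slc2a1, the tight junction protein Cldn1 and the integrin chain Itgb4, each well above background on all 6 arrays. Of the mesothelial genes, Wt1 was measured on all 6 arrays, but Upk1b, Lrrn4, Bnc1, Pkhd1l1 and Calb2 were well above background on 0 arrays, as was Upk3b, and Muc16 was not analysed here. Genes listed as perineurial were thus measured, but which cells of the nerve made them was not tested. The mesothelial side of the label rested on Msln, Wt1 and 6 further genes. Of these, the mucin-like protein Pdpn and the matrix protein Efemp1 are also known from fibroblasts.

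Among the 13 other perineurial genes measured, 2 fell, none rose and 11 did not pass, with a median log2 fold change of -0.29. Mpzl2, a cell adhesion protein related to myelin protein zero, fell by 0.67 (SE 0.12, limma adjusted p = 0.0117). Moxd1, a copper-dependent monooxygenase-like protein, had -0.54 (SE 0.17, adjusted p = 0.0617), and Itgb4, the integrin chain of hemidesmosomes, -0.52 (SE 0.18, adjusted p = 0.0810), both in the same limma fit. The estimate was negative in 11 of the 13 genes, against 56.7% of all genes tested. The same held for 9 of 10 Schwann cell, 9 of 10 fibroblast and 8 of 10 endothelial markers (medians -0.34, -0.62 and -0.20). Of the other mesothelial genes measured, 3 of 7 had a negative estimate. Mpzl2 did not pass with slide as a fixed block (adjusted p = 0.0727) or without OGT_SCKO pool 3 (adjusted p = 0.0533).

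Of 13 other mesothelial genes, 7 were measured: 1 rose, none fell and 6 did not pass, and the median log2 fold change was 0.07. Nkain4, a membrane protein that interacts with the sodium-potassium pump, rose while Msln fell, and which cells of the nerve made Nkain4 was not tested. Its level was 0.44, 0.45 and 0.32 in OGT_SCKO pools 1, 2 and 3, against -0.98, -0.63 and -0.75 in Ctrl pools 1, 2 and 3. The log2 fold change was 1.19 (SE 0.12, limma adjusted p = 0.00151), and within slide 1 it was 1.04 with an adjusted p of 0.0865. Pdpn (0.27, adjusted p = 0.253), Efemp1 (0.18, adjusted p = 0.334) and the claudin Cldn15 (-0.22, adjusted p = 0.351) did not pass the limma test.

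The partners of Tjp1 and Ocln in tight junctions moved in both directions. Of 18 listed, 16 were measured: 2 rose, 3 fell and 11 did not pass, with a median of -0.20. Cldn3, a claudin of epithelia, rose by 3.60 (SE 0.11), or 12.1-fold, and had the smallest p of all genes tested (limma adjusted p = 0.000117). Its level was -0.79, -0.74 and -0.93 in OGT_SCKO pools 1, 2 and 3, against -4.45, -4.47 and -4.33 in Ctrl pools 1, 2 and 3. With normexp background correction the rise was 7.05-fold. The scaffold Tjp3 (ZO-3) rose by 1.04 (SE 0.19, limma adjusted p = 0.0103), while Cldn12 fell by 0.60 (SE 0.12, adjusted p = 0.0136) and Cgn, the junction plaque protein cingulin, fell by 0.47 (SE 0.12, adjusted p = 0.0381). The other gene that fell was the junction adhesion molecule F11r (-0.38, SE 0.11, limma adjusted p = 0.0443), named after its values were seen and not followed under the alternatives. With slide as a fixed block, Tjp3, Cldn12 and Cgn did not pass (adjusted p = 0.0989, 0.133 and 0.0815). Tjp3 did not pass with normexp correction (adjusted p = 0.0509), nor Cldn12 without OGT_SCKO pool 3, Ctrl pool 1 or Ctrl pool 3 (adjusted p = 0.0627, 0.0521 and 0.0646). The call of Cgn also ended under quantile or median scaling, normexp, the deposited values, no filter on dim probes, the other variance model and without OGT_SCKO pool 3 or any 1 Ctrl pool (adjusted p = 0.0538 to 0.420).

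Desmosome genes, the junction partners of Perp, were measured in 6 of 11 cases, of which 2 rose, 1 fell and 3 did not pass (median -0.28). Pkp2, a plakophilin that links desmosomes to keratin filaments, had levels of -0.51, -0.50 and -0.63 in OGT_SCKO pools 1, 2 and 3, against -2.00, -2.09 and -1.87 in Ctrl pools 1, 2 and 3. It rose by 1.44 (SE 0.11, limma adjusted p = 0.000452). Pkp1, another plakophilin, was well above background in all 3 OGT_SCKO pools and in 0 of 3 Ctrl pools, and stood at least 2.12-fold above its Ctrl level (limma adjusted p = 0.00185). For that bound, each Ctrl array was given the dimmest level that still counted as well above background, or the level of Pkp1 itself where that was higher. With normexp correction Pkp1 did not pass (limma adjusted p = 0.200). Jup, plakoglobin, fell by 0.68 (SE 0.19, limma adjusted p = 0.0447), a call that ended without OGT_SCKO pool 3 or any 1 Ctrl pool (adjusted p = 0.0760 to 0.132), with slide as a fixed block (0.148), with normexp (0.208) and with no filter on dim probes (0.0987). Dsp, Dsc1, Dsc2, Dsc3 and Dsg1a were well above background on 0 arrays.

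Of 11 proteins that share or bind the keratin network, 10 were measured: 1 rose, 1 fell and 8 did not pass (median 0.05). Ppl, periplakin, which tethers keratin filaments to desmosomes and the cornified envelope, fell by 1.53 (SE 0.13, limma adjusted p = 0.000694). Krt23, a type I keratin, rose by 1.37 (SE 0.23, limma adjusted p = 0.00864) and was well above background in 3 of 3 OGT_SCKO pools and 1 of 3 Ctrl pools. With normexp correction neither passed (Ppl -0.90, adjusted p = 0.0943; Krt23 0.82, adjusted p = 0.106). The plakins Eppk1 (0.36, adjusted p = 0.0748) and Dst (0.29, adjusted p = 0.104) did not pass in the limma fit.

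Since Perp is a p53 target, 10 other p53 targets were listed, of which 9 were measured: 2 rose, none fell and 7 did not pass (median 0.22). The pro-apoptotic genes Bax (1.08, SE 0.20, limma adjusted p = 0.0117) and Bbc3 (0.60, SE 0.13, limma adjusted p = 0.0202) rose. Neither passed with slide as a fixed block (adjusted p = 0.125 and 0.180), nor without OGT_SCKO pool 3 (0.0506 and 0.0785) or Ctrl pool 3 (0.0525 and 0.0548), and Bbc3 missed the threshold without Ctrl pool 1 (0.0625) and with no filter on dim probes (0.0613) as well. Zmat3 (0.41, adjusted p = 0.0516) and Trp53inp1 (0.30, adjusted p = 0.118) did not pass.

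Lypd2 has relatives in the Ly6 and Lypd family, of which 14 of 19 listed genes were measured: none rose, 4 fell and 10 did not pass (median -0.18). Ly6g6d had levels of -1.40, -1.54 and -1.55 in OGT_SCKO pools 1, 2 and 3, against 0.39, 0.44 and 0.45 in Ctrl pools 1, 2 and 3, a fall of 1.92 (SE 0.10, limma adjusted p = 0.000184). Ly6g6e fell by 2.19 (SE 0.16, limma adjusted p = 0.000423), with 2 of 3 OGT_SCKO pools and 3 of 3 Ctrl pools well above background. Slurp1, a secreted member known from skin, fell by 1.26 (SE 0.25, limma adjusted p = 0.0159), and Lypd5 fell by 0.85 (SE 0.19, limma adjusted p = 0.0216). Normexp correction ended the calls of Ly6g6e (-1.09, adjusted p = 0.112) and Slurp1 (-0.55, adjusted p = 0.399). Leaving out OGT_SCKO pool 3 or Ctrl pool 1 ended those of Slurp1 (adjusted p = 0.0649 and 0.0517) and Lypd5 (adjusted p = 0.0864 and 0.0773). Lypd5 did not pass without Ctrl pool 3 (adjusted p = 0.0810), with no filter on dim probes (0.0535) or with slide as a fixed block (-0.48, adjusted p = 0.184) either.

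Among 4 other uroplakins, the partners that Upk3b is related to, Upk1a alone was measured, and its change of -0.76 (SE 0.23) did not pass (limma adjusted p = 0.0586).

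**Figure D3:**
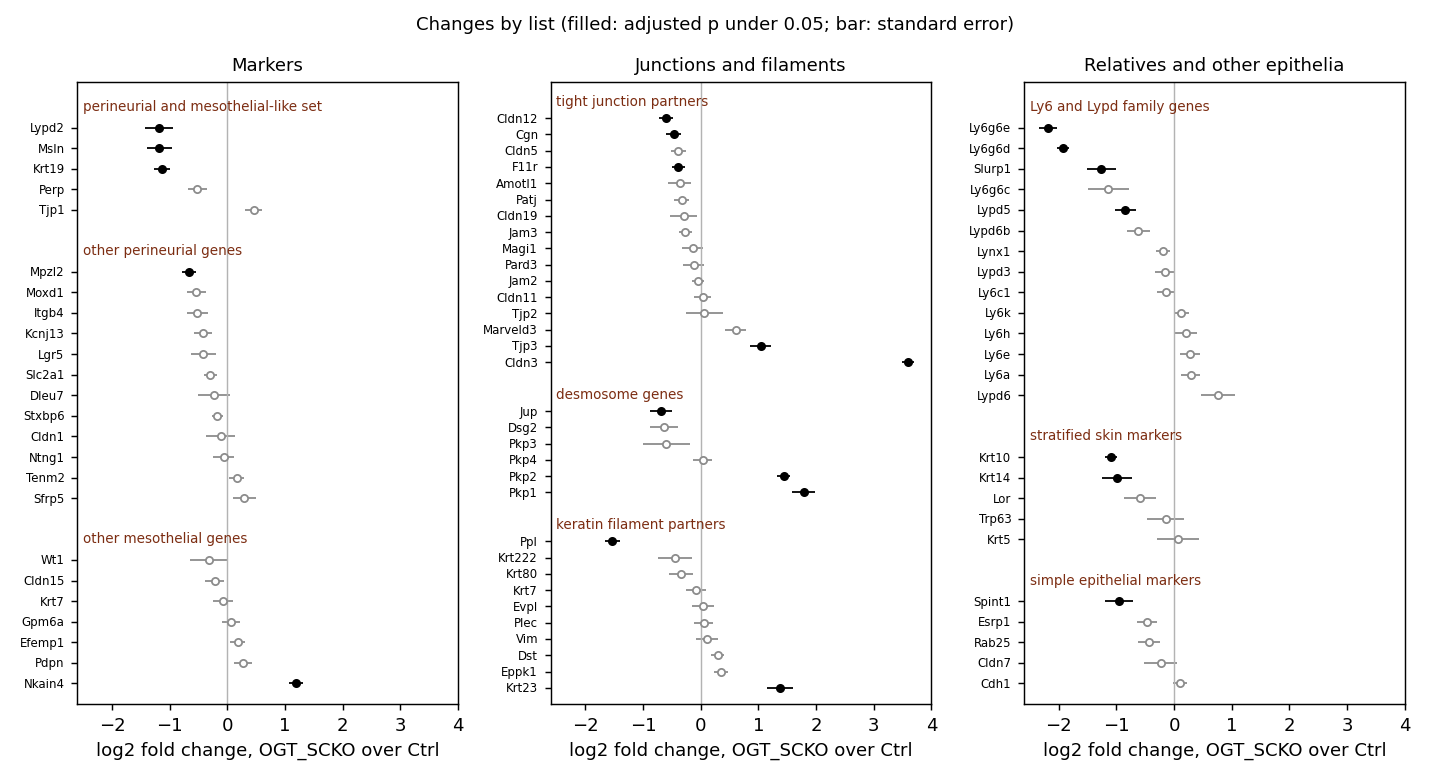
Log2 fold changes, OGT_SCKO over Ctrl (x axis), of the measured genes of the set and of 8 of the other lists, apart from 1 perineurial gene, with SE from the limma fit and filled points at an adjusted p under 0.05. Lypd2, Msln and Krt19 sit near -1.1 to -1.2, whereas tight junction and desmosome genes spread to both sides, with Cldn3 at 3.60; the point of Pkp1 is a fitted value, for which the text gives a bound.

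Other epithelia could carry the same genes, so their markers were read on the same arrays. Of 10 stratified skin markers 5 were measured, with 0 higher, 2 lower and 3 not passed; the skin keratins Krt10 (-1.09, SE 0.10, limma adjusted p = 0.00104) and Krt14 (-0.99, SE 0.25, limma adjusted p = 0.0345) fell. Krt14 did not pass without OGT_SCKO pool 3 or any 1 Ctrl pool (adjusted p = 0.0760 to 0.101), with slide as a fixed block (0.149), with normexp (0.163) or with no filter on dim probes (0.0739). Krt15, Krt6a, Flg and Krtdap were well above background on 0 arrays, and the summed level of the measured skin markers was 4.18 to 8.46 in OGT_SCKO and 6.32 to 9.65 in Ctrl pools, in units of the array's 75th percentile. Trp63, the p53 relative of basal epithelial cells, did not pass (-0.15, limma adjusted p = 0.760) and made up 85.5% to 90.2% of that sum in OGT_SCKO and 79.6% to 84.9% in Ctrl pools. The sum of the other 4 was 0.61 to 0.83 in OGT_SCKO and 1.25 to 1.46 in Ctrl pools, with no overlap, in a split made after the data were seen. Of 10 simple epithelial markers 5 were measured, with 0 higher, 1 lower and 4 not passed. The protease inhibitor Spint1 fell (-0.95, SE 0.24, limma adjusted p = 0.0319), but did not pass with normexp (0.0535), with slide as a fixed block (0.120), with no filter on dim probes (0.0699), or without OGT_SCKO pool 1 (0.0514), OGT_SCKO pool 3 (0.106), Ctrl pool 2 (0.0978) or Ctrl pool 3 (0.0948). Epcam, Grhl2, Elf3 and Krt20 were well above background on 0 arrays, and the summed level was 4.67 to 4.98 in OGT_SCKO and 5.17 to 6.40 in Ctrl pools. Cdh1, with the highest mean level of the 5 (1.57 in OGT_SCKO and 1.46 in Ctrl nerves), did not pass (0.11, limma adjusted p = 0.522). The gap between the sums rested largely on Spint1, with mean levels of 0.03 in OGT_SCKO and 0.99 in Ctrl nerves.

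Markers of other cells of the nerve and of tissue around it were read in the same way. Of the adipocyte markers, 9 of 10 were measured, with 5 lower and 4 not passed, and their summed level was 1.37, 0.61 and 2.77 in OGT_SCKO pools 1, 2 and 3, against 3.85, 20.4 and 16.6 in Ctrl pools 1, 2 and 3. Skeletal muscle markers (8 of 10 measured, 5 lower, 3 not passed) summed to 4.02, 2.35 and 2.78 in the OGT_SCKO pools and 5.47, 6.37 and 6.69 in the Ctrl pools. Fibroblast markers (10 measured, 3 lower, 7 not passed) summed to 259 to 461 in OGT_SCKO and 388 to 624 in Ctrl pools. Endothelial markers (10 measured, 1 lower, 9 not passed) summed to 19.0 to 23.7 in OGT_SCKO and 27.3 to 30.7 in Ctrl pools. Schwann cell markers (10 measured, 2 lower, 8 not passed) summed to 313 to 501 in OGT_SCKO and 485 to 640 in Ctrl pools. The genes that fell were Adipoq, Cidec, Retn, Fabp4 and Car3 among the adipocyte markers, and Acta1, Myh4, Tnnt3, Actn3 and Pvalb among those of muscle. They were Dpt, Clec3b and Fbln1 among the fibroblast markers, Egfl7 among the endothelial ones, and S100b and Prx among those of Schwann cells. Many of these calls depend on the setting, and Car3 and Myh4 were not followed. Actn3 (-3.84, SE 0.21, limma adjusted p = 0.000190) and Dpt (-0.99, SE 0.14, limma adjusted p = 0.00449) passed with normexp, with slide as a fixed block and with each pool left out in turn. Adipoq, Cidec, Retn and Fabp4 did not pass with normexp (limma adjusted p = 0.0507 to 0.155), with slide as a fixed block (0.0623 to 0.0991) or without Ctrl pool 2 or 3 (0.0543 to 0.105). Acta1 (0.145) and Tnnt3 (0.0580) did not pass with normexp, and Tnnt3 did not without OGT_SCKO pool 3 (0.0683). With slide as a fixed block the calls of Acta1 (0.116), Pvalb (0.131), Clec3b (0.106), Egfl7 (0.191), S100b (0.0927) and Prx (0.130) ended. Calls also ended for Fbln1 without OGT_SCKO pool 3 (0.0641) or Ctrl pool 3 (0.0544), for S100b without OGT_SCKO pool 3 (0.0515), and for Pvalb without any 1 pool other than OGT_SCKO pool 1 (0.0520 to 0.106). Egfl7 did not pass with quantile or median scaling (0.0721 and 0.0629) or without any 1 pool other than OGT_SCKO pool 3 (0.0601 to 0.126). Prx had -0.20 with quantile scaling (0.241) and did not pass without any 1 pool other than OGT_SCKO pool 1 (0.0539 to 0.120). None of these 5 lists held a gene that rose. Ctrl pool 2 had the highest adipocyte sum and the highest Lypd2 and Msln levels after scaling. Its array had the lowest 75th percentile of signal, 2749 intensity units. Before scaling, Lypd2 gave 24383, 25284 and 25621 units in Ctrl pools 1, 2 and 3, and Msln 8700, 9778 and 9721 units. The part of these 5 marker lists in the lower Lypd2, Msln and Krt19 was not tested.

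**Figure D4:**
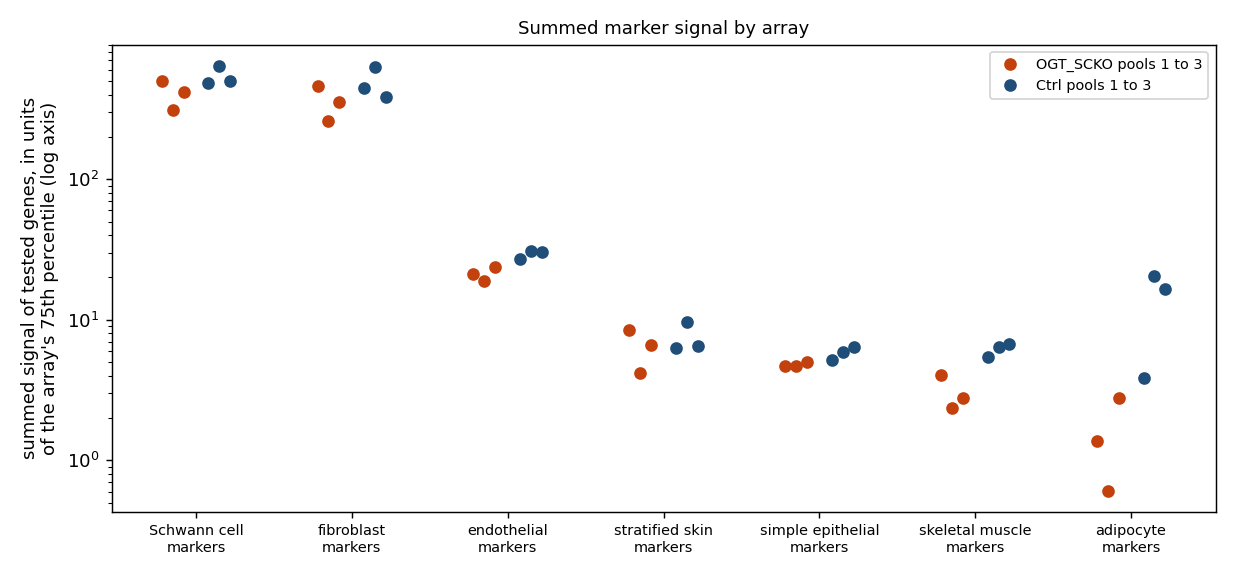
Summed signal of the measured genes of 7 cell type lists in each pool, in units of the array's 75th percentile (log axis). The adipocyte sums lie between 0.61 and 2.77 in OGT_SCKO and between 3.85 and 20.4 in Ctrl pools, and the groups of the skin, fibroblast and Schwann lists overlap; most of the skin sum is Trp63.

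The gene whose levels were most like each member's was found among 14400 genes with a symbol that were well above background on all 6 arrays. Zic4, a zinc finger transcription factor, had the highest Pearson r with Lypd2 (0.998). For Msln it was Abhd14b (0.996), for Krt19 Cdk15 (0.999), for Perp Selenoi (0.998) and for Tjp1 Stx2 (0.999). Each value is a description over 6 arrays that form 2 groups, and many genes came close: 552 genes had an r above 0.95 with Lypd2, 418 with Msln, 598 with Krt19, 153 with Perp and 659 with Tjp1.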

How the data were processed

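Total RNA of 6 nerve pools was labelled with a red dye and hybridised to 1 array each, per the labels' protocols. Per the file headers, the authors' intensity values came from Agilent Feature Extraction 11.5.1.1, also named in the submitters' processing notes, which subtracted background and gave a surrogate in place of very low values; other flags in the deposited files mark spots well above background. The authors' deposited table of log2 values was an alternative; its columns correlate with the scanner values at 0.996 to 1.000 and share a median of 9.13, and the sources used here do not give the way it was scaled.

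The values analysed were log2 of the processed signal minus each array's 75th percentile. Control and outlier spots were left out. Probes well above background on all arrays of a group were kept (24268), and a gene was represented by its kept probe with the highest mean (19046 genes). Probes were renamed by accession through RefSeq gene names (27649 matched, 1710 changed); probe positions are those of the files, on mm9, and no exon or UTR annotation was used here. Groups were compared with limma 3.58.1 (R 4.3.3), with no covariate in the model, after a test on simulated data. Precision is limited by the number of arrays.

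The 9 genes and the 15 other lists (perineurial, mesothelial, tight junction, desmosome, keratin partner, p53 target, Ly6 and Lypd, uroplakin, skin, simple epithelial, endothelial, fibroblast, Schwann, adipocyte and skeletal muscle) were chosen with earlier results of these data known. Krt7, Krt20, Cldn5 and Upk1b stand in 2 lists each. Named were all 9 genes, up to 4 measured genes per list with the smallest p, the most similar gene of each member, and Ogt; 1 gene is counted but not reported here by name, and F11r, Car3, Myh4 and marker genes named only as present or not above background were chosen after their values were seen. Alternatives were quantile or median scaling, normexp (offset 50), other filters on dim probes, averaging the probes of a gene, the authors' log2 table, slide as a block (fixed or random), slide 1 alone, a replicate block, another variance model, a threshold of 0.01, and leaving out each array.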

Additional observations from a re-analysis of the deposited data

How the results depend on the processing

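No gene of the set changed its direction under any of the 18 alternatives run. Lypd2 passed in 15 of them (log2 fold change -1.61 to -0.97), Msln in 16 (-1.65 to -0.94), Krt19 in 17 (-1.25 to -1.04), and Perp and Tjp1 in 2 each. Of the 9 genes, 3 fell; the count was 1 within slide 1 alone, with a replicate block and at an adjusted p under 0.01, and 1 to 4 with an array left out. None rose, but 1 did with the other variance model, and 0 to 1 with an array left out. Over all genes, 2128 rose and 2312 fell. Those numbers were 1324 and 1308 with no filter, 683 and 543 with slide as a fixed block, 284 and 123 within slide 1 alone, 798 and 682 with a replicate block, and 910 and 829 at an adjusted p under 0.01; 1224 fell with normexp. With an array left out, 1025 to 2250 rose and 951 to 3382 fell. The cause of these shifts was not tested, except that slide 1 alone has fewer arrays and no filter tests more genes.

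The deviations of same-numbered pools from their group means correlated at -0.27, -0.53 and 0.06, and those of pools with unlike numbers at -0.41 to 0.46. These deviations share the scaling of each array, so they cannot show whether the pools were paired. With the replicate block, Lypd2 and Msln had adjusted p-values of 0.0699 and 0.0639, and Krt19 of 0.0212. Of 35 called genes named from the other lists, 17 did not pass with normexp, 21 with slide as a fixed block and 28 within slide 1 alone, and none of the 35 changed direction. Among genes that had not passed, Trp53inp1 turned to -0.10 with the mean of its probes, and Trp63 to 0.15 and 0.08 without OGT_SCKO pool 2 and Ctrl pool 2, in a range of -0.40 to 0.15 with a pool left out. Signal over background leaves Krt18, Krt8, Ocln and Upk3b without a level.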

Other observations

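The measured genes within 100 kb of the 3 genes that fell were read from the probe positions in the files (mm9), a choice made after the data were seen and given without a test. Around Msln, 16 other genes were measured, of which 7 fell and 0 rose. These were the rhomboid-like gene Rhbdl1 (log2 fold change -1.67), the G protein subunit Gng13 (-1.20), Wdr24 (-0.99), Rpusd1 (-0.98), Jmjd8 (-0.71), Rhot2 (-0.47), which acts in mitochondrial transport, and Fbxl16 (-0.46). Around Lypd2, 7 were measured and 1 fell, the family member Slurp1, whose probe lies 5599 bases away. Around Krt19, 3 were measured and 1 fell, the skin keratin Krt14. Over all genes tested, 12.1% fell.

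Lypd2 and Msln also varied together within the groups, with a correlation of 0.93 between their deviations from the group means over the 6 arrays, which share the scaling of each array. For Krt19 the same value was 0.69 with Lypd2 and 0.46 with Msln. Perp and Tjp1, which did not pass the test, had 0.88 with each other and, after scaling, negative values with Lypd2 (-0.59 and -0.81). Before scaling, Lypd2 gave 24383, 25284 and 25621 intensity units in Ctrl pools 1, 2 and 3. The 75th percentiles of those arrays were 4144, 2749 and 4312 units. How far these correlations follow the scaling was not tested.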
